A study of Mus musculus with 6 samples.

Results

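The 9 genes described here encode enzymes of the tricarboxylic acid (TCA) cycle and the isocitrate dehydrogenases, which make 2-oxoglutarate. They are Cs, Idh1, Idh2, Idh3a, Ogdh, Dlst, Suclg1, Fh1 and Mdh2, taken by symbol from the 23951 genes of the authors' deposited table, and all 9 were among the 14095 genes the authors tested. Messenger RNA was compared between mouse embryonic stem (ES) cells with a knockout (KO) of Alkbh1, in 4 libraries from 2 clones with 2 libraries each, and wild-type (WT) cells, in 2 libraries. Both groups were of the TT2 line on a C57BL6 x CBA background, at passage 5, cultured in the absence of feeder cells. The table gives 1 FPKM value per gene for KO and 1 for WT, a read count corrected for transcript length and library size. The sources used here do not state which of these libraries entered each value or what scaling was used between libraries. With 1 value per condition, nothing below has an SD, clone could not be set against clone, and the depth is unknown. Because every KO library came from 1 of 2 clones, genotype and clone cannot be told apart, and the labels do not say whether replicates were separate cultures, so the authors' q may rest on technical spread. In bulk RNA, fewer cells of a type and less RNA per cell cannot be told apart either.

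The TCA cycle oxidises acetyl groups in the mitochondrion. Citrate synthase joins acetyl-CoA to oxaloacetate, isocitrate dehydrogenases turn isocitrate into 2-oxoglutarate, the 2-oxoglutarate dehydrogenase complex and succinyl-CoA ligase carry it on to succinate, and fumarase and malate dehydrogenase close the circle at oxaloacetate. 2-Oxoglutarate is also the co-substrate of the iron-dependent dioxygenases, a family that holds ALKBH1, the TET enzymes and many histone demethylases, while succinate and fumarate inhibit such enzymes. In mouse ES cells the supply of 2-oxoglutarate is known to bear on the methylation of DNA and histones.

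The targeted gene and the general drift of the table frame every value below. In the authors' deposited table Alkbh1 stood at 18.1 FPKM in KO and 33.9 FPKM in WT (log2 fold change -0.90, q = 0.0943), and its region there holds 5 genes. All log2 fold changes are of KO over WT, and a gene is called at the authors' q under 0.05, which was met by 22.4% of tested genes as higher and 28.4% as lower in KO. Fold changes in the authors' deposited table ran with expression level: across 10 classes of equal size by mean FPKM, the median log2 fold change was 0.69 in the lowest and -0.72 in the highest. Over all tested genes the median was -0.06, while FPKM summed in KO to 63.6% of the WT sum. Scaling both conditions to equal totals therefore adds 0.65 to every log2 fold change, and to that median. The 6 ES cell markers checked summed to 3809 FPKM in KO and 6259 FPKM in WT, of which Dppa5a alone gave 2099 FPKM and 3753 FPKM. Esrrb was the lowest, at 84.3 FPKM in KO and 75.04 FPKM in WT. Of the 5 tested, 4 were called lower (Pou5f1, Sox2, Zfp42 and Dppa5a) and Esrrb was not called, while Nanog had no test result. All 5 lie in the highest level class, where 76.6% of genes were called lower. The 8 fibroblast markers summed to 11.4 FPKM in KO and 7.32 FPKM in WT, of which Thy1 gave 9.39 FPKM and 6.43 FPKM. The 3 that were tested (Thy1, Col1a1 and Pdgfrb) were called higher. Col1a1 (0.664 FPKM in KO and 0.322 FPKM in WT) and Pdgfrb (0.895 FPKM and 0.318 FPKM) lie in the lowest level class, where 41.3% of genes were called higher. Of those not tested, Col1a2 and Dcn were lower in KO, and Pdgfra, Col3a1 and Postn higher, the last 2 listed at 0 in WT. Of 6 extraembryonic endoderm markers, summing to 157 FPKM in KO and 187 FPKM in WT, Sparc alone gave 152 FPKM in KO and 185 FPKM in WT without a call and none was at 0. The other 2 tested endoderm markers were called higher. Lama1 stood at 3.68 FPKM in KO and 2.10 FPKM in WT, and Gata4 at 0.557 FPKM in KO and 0.345 FPKM in WT. In their level classes 33.3% and 41.3% of genes were called higher. Of the endoderm markers not tested, Afp was lower in KO (0.0478 FPKM, against 0.0823 FPKM in WT). Gata6 (0.260 FPKM in KO and 0.196 FPKM in WT) and Sox17 (0.140 FPKM and 0.0665 FPKM) were higher. The part of such cells in the results was not tested.

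As deposited, 5 of the 9 enzyme genes fell in KO (Suclg1, Idh3a, Fh1, Mdh2 and Ogdh), 1 rose (Idh2), and 3 were not called (Cs, Idh1 and Dlst), but with equal totals only Suclg1 of the 9 would lie below 0. Their median log2 fold change was -0.40, against -0.06 over all tested genes. All 9 were abundant, 6 in the highest of the 10 level classes and Idh2, Ogdh and Dlst in the class below it. In the highest class 76.6% of genes were called lower and 1.56% higher, and in the next 59.5% were called lower and 3.69% higher. Set against the median of their own level class, 8 of the 9 genes lay above it and only Suclg1 lay below it. The falls of single enzymes are therefore near what most genes of that level showed, and the 3 genes farthest from their level class are Idh2, Cs and Idh1.

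**Figure D1:**
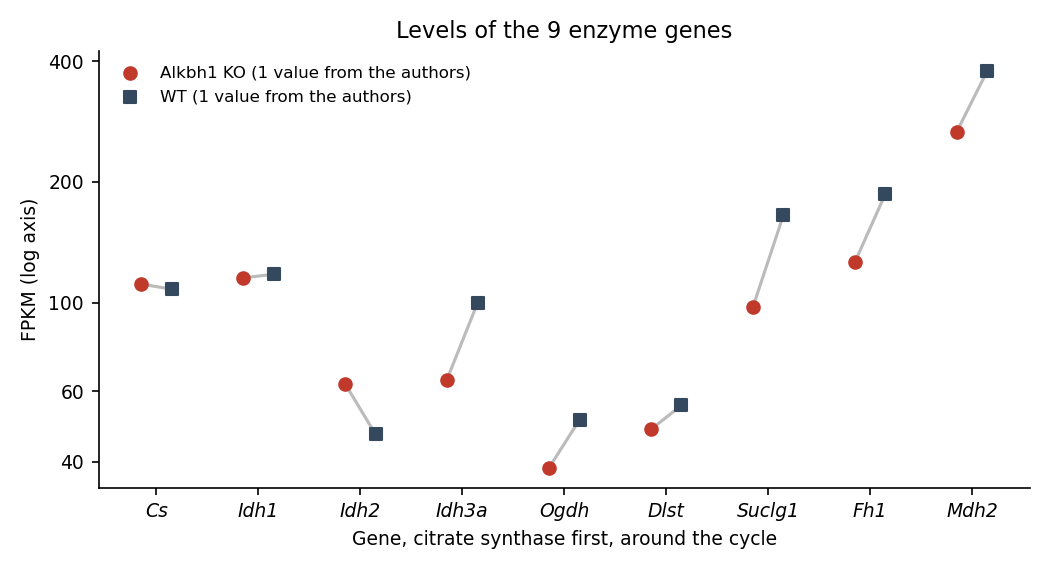
FPKM (log axis) of the 9 genes in Alkbh1 KO (circles) and WT (squares) ES cells, 1 value per condition from the authors' deposited table, ordered from citrate synthase around the cycle. The KO value is the lower one for Idh3a, Ogdh, Dlst, Suclg1, Fh1 and Mdh2 as deposited, nearly level for Cs and Idh1, and the higher one for Idh2, while equal totals would put KO lower for Suclg1 only.

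The cycle opens with Cs, the citrate synthase gene, which was level between the genotypes as deposited. Cs (chromosome 10, 127774888 to 127799535, mm9) stood at 111 FPKM in KO and 108 FPKM in WT in the authors' deposited table, a log2 fold change of 0.04 (q = 0.841). Of tested genes in its level class, 94.5% had a lower log2 fold change than Cs. Its copy Csl, a citrate synthase-like gene, was at 0.153 FPKM in KO and 0.116 FPKM in WT and was not tested.

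The isocitrate dehydrogenase genes did not all move one way as deposited. Idh1 encodes the NADP-linked enzyme of the cytosol and peroxisomes, Idh2 the NADP-linked enzyme of mitochondria, and Idh3a the catalytic subunit of the NAD-linked mitochondrial enzyme that runs in the cycle. In the authors' deposited table Idh1 (chromosome 1, 65205190 to 65233053, mm9) stood at 115 FPKM in KO and 118 FPKM in WT, with a log2 fold change of -0.03 (q = 0.881) that equal totals or centring on the median of all genes would place above 0. Idh2 (chromosome 7, 87239734 to 87260236, mm9) rose to 62.8 FPKM in KO, against 46.9 FPKM in WT, a log2 fold change of 0.42 (q = 0.0189) in the authors' deposited table. That is 1.34 times the WT level, and 96.1% of tested genes in its level class had a lower log2 fold change. Idh3a (chromosome 9, 54434318 to 54452469, mm9) fell to 64.2 FPKM in KO, against 99.7 FPKM in WT, a log2 fold change of -0.63 (q = 0.000206) in the authors' deposited table, which equal totals would turn to 0.02. Idh3a thus lay close to its level class, where 59.7% of genes had a lower log2 fold change. The other two subunits of the NAD-linked enzyme, named here after their values were seen, were lower as well: Idh3g fell to 113 FPKM in KO, against 145 FPKM in WT (q = 0.037), while Idh3b had 65.5 FPKM in KO and 96.7 FPKM in WT without a call (q = 0.256), in the authors' deposited table. Equal totals would turn the log2 fold changes of Idh3g and Idh3b to 0.29 and 0.09. In their level class 80.35% and 65.5% of genes had a lower log2 fold change than Idh3g and Idh3b. The region of Idh3b holds 4 genes, so its reads are uncertain.

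The balance between these genes within a condition does not depend on how the conditions were scaled to each other. It can still carry the drift with level, as the median of the level class was -0.51 for Idh2 and -0.72 for Idh1, Idh3a, Idh3b and Idh3g. Summed FPKM of Idh1 and Idh2 was 178 in KO and 165 in WT, and that of Idh3a, Idh3b and Idh3g was 243 in KO and 342 in WT. The NADP-linked genes thus made up 42.3% of isocitrate dehydrogenase FPKM in KO and 32.5% in WT, and without Idh3b 50.1% in KO and 40.2% in WT. With Idh3a alone standing for the NAD-linked enzyme the share was 73.5% in KO and 62.3% in WT, so its size depends on which subunits are summed, while it was higher in KO in each of the 3 sums. Idh2 alone made up 35.3% of the NADP-linked sum in KO and 28.5% in WT. The ratio of Idh2 to Idh3a FPKM was 0.977 in KO and 0.470 in WT, and that of Idh1 to Idh3a was 1.79 in KO and 1.18 in WT. These shares were chosen after the values were seen, and with 1 value per condition no test of them was possible.

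**Figure D2:**
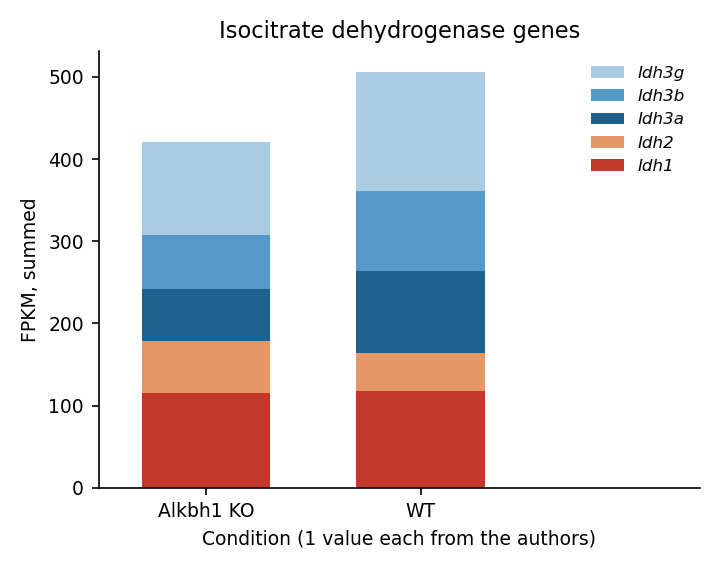
Summed FPKM of the 5 isocitrate dehydrogenase genes in Alkbh1 KO and WT ES cells, with 1 value per gene and condition from the authors' deposited table stacked from 0. The NADP-linked genes Idh1 and Idh2 (red and orange) hold 42.3% of the KO bar and 32.5% of the WT bar, and the Idh3 subunits (blues) hold the rest.

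The 2-oxoglutarate dehydrogenase complex, which consumes 2-oxoglutarate, was represented by Ogdh and Dlst. Ogdh encodes its E1 component, which binds 2-oxoglutarate, and Dlst its E2 succinyltransferase. Ogdh (chromosome 11, 6191600 to 6259097, mm9) fell to 38.6 FPKM in KO, against 50.95 FPKM in WT, a log2 fold change of -0.40 (q = 0.0172) in the authors' deposited table, and equal totals would turn this to 0.25. Dlst (chromosome 12, 86451783 to 86475041, mm9) had 48.2 FPKM in KO and 55.4 FPKM in WT, a log2 fold change of -0.20 (q = 0.265) in the authors' deposited table. The E3 gene of the complex, Dld, which the pyruvate dehydrogenase complex shares, fell further, to 53.5 FPKM in KO, against 108.8 FPKM in WT (log2 fold change -1.03, q = 0.000206, authors' deposited table). Dld lies in the highest level class, where 76.6% of genes were called lower and 19.6% had a lower log2 fold change than Dld. Ogdh and Dlst lie in the class below it, where 59.5% were called lower. The ratio of Dld to Ogdh FPKM, genes of different level classes, was 1.38 in KO and 2.14 in WT. That of Dlst to Ogdh was 1.25 in KO and 1.09 in WT. Paralogues of Ogdh, at lower levels, were called higher. Ogdhl, a 2-oxoglutarate dehydrogenase-like gene, rose to 21.2 FPKM in KO, against 12.4 FPKM in WT (log2 fold change 0.77, q = 0.000206, authors' deposited table). Dhtkd1, the E1 gene of the 2-oxoadipate dehydrogenase complex, rose to 5.47 FPKM in KO, against 2.03 FPKM in WT (log2 fold change 1.43, q = 0.000206, authors' deposited table). Higher calls made up 12.4% of the level class of Ogdhl and 33.3% of that of Dhtkd1, against 3.69% of that of Ogdh. Of genes in the same class, 95.5% had a lower log2 fold change than Ogdhl and 96.7% than Dhtkd1. The ratio of Ogdh to Ogdhl FPKM, genes of different level classes, was 1.82 in KO and 4.10 in WT.

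Suclg1 showed the largest fall of the 9 genes as deposited. It encodes the alpha subunit of succinyl-CoA ligase, common to both forms of the enzyme, while Sucla2 and Suclg2 encode the beta subunits of the ATP-forming and GTP-forming enzymes. Suclg1 (chromosome 6, 73198499 to 73226901, mm9) fell to 97.4 FPKM in KO, against 165 FPKM in WT, which is 58.8% of the WT level (log2 fold change -0.77, q = 0.000206, authors' deposited table). Within its level class 44.5% of genes had a lower log2 fold change, so it stood near the middle of its class. Sucla2 fell by a like amount as deposited, to 50.3 FPKM in KO, against 85.5 FPKM in WT (log2 fold change -0.76, q = 0.000206, authors' deposited table). The ratio of Suclg1 to Sucla2 FPKM was 1.94 in both KO and WT. The 2 genes lie in different level classes, and in that of Sucla2 25.3% of genes had a lower log2 fold change. Suclg2 had 29.3 FPKM in KO and 36.98 FPKM in WT and was not called (q = 0.0564, authors' deposited table). It was named after its value was seen.

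Fh1 and Mdh2, of the last steps, were the most abundant of the 9 in both conditions. Fh1 encodes fumarase and Mdh2 the mitochondrial malate dehydrogenase. Fh1 (chromosome 1, 177531509 to 177555766, mm9) fell to 126 FPKM in KO, against 187 FPKM in WT, a log2 fold change of -0.57 (q = 0.00039) in the authors' deposited table. Mdh2 (chromosome 5, 136254519 to 136266256, mm9) fell to 267 FPKM in KO, against 379 FPKM in WT, a log2 fold change of -0.51 (q = 0.00297) in the authors' deposited table. Equal totals would turn these 2 log2 fold changes to 0.09 and 0.15. The cytosolic malate dehydrogenase gene Mdh1 fell alike, to 157 FPKM in KO, against 227 FPKM in WT (log2 fold change -0.53, q = 0.00191, authors' deposited table), and the ratio of Mdh2 to Mdh1 FPKM was 1.70 in KO and 1.67 in WT. The ratio of Mdh2 to Cs FPKM was 2.40 in KO and 3.51 in WT.

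**Figure D3:**
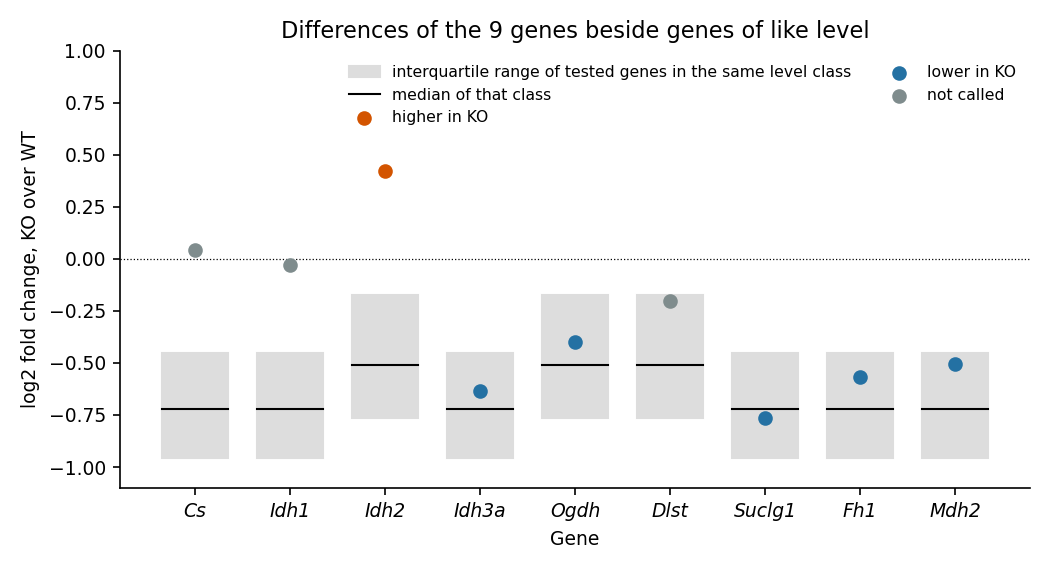
Log2 fold change of KO over WT for each of the 9 genes (points, coloured by the authors' call at q under 0.05), beside the median (line) and interquartile range (grey) of tested genes in the same level class by mean FPKM. As deposited, Idh2, Cs and Idh1 sit above the grey range, while the 5 genes called lower sit within it, 4 of them above the line and Suclg1 below it, and equal totals would leave only Suclg1 below 0.

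In order of level, Mdh2 and Fh1 stood first and second in both conditions. Idh1, Cs, Suclg1, Idh3a, Idh2, Dlst and Ogdh followed in KO, whereas the order in WT was Suclg1, Idh1, Cs, Idh3a, Dlst, Ogdh and Idh2. Suclg1 stood above Idh1 and Cs in WT only, and Idh2, the lowest in WT, stood above Dlst and Ogdh in KO. The highest of the 9 stood at 6.92 times the lowest in KO and 8.09 times in WT. Neighbours such as Idh1 and Cs, or Idh3a and Idh2 in KO, differ by a few FPKM, and without a spread their order was not tested. Summed, the 9 genes reached 931 FPKM in KO and 1211 FPKM in WT, or 76.9% of the WT sum, against 63.6% over all tested genes.

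**Figure D4:**
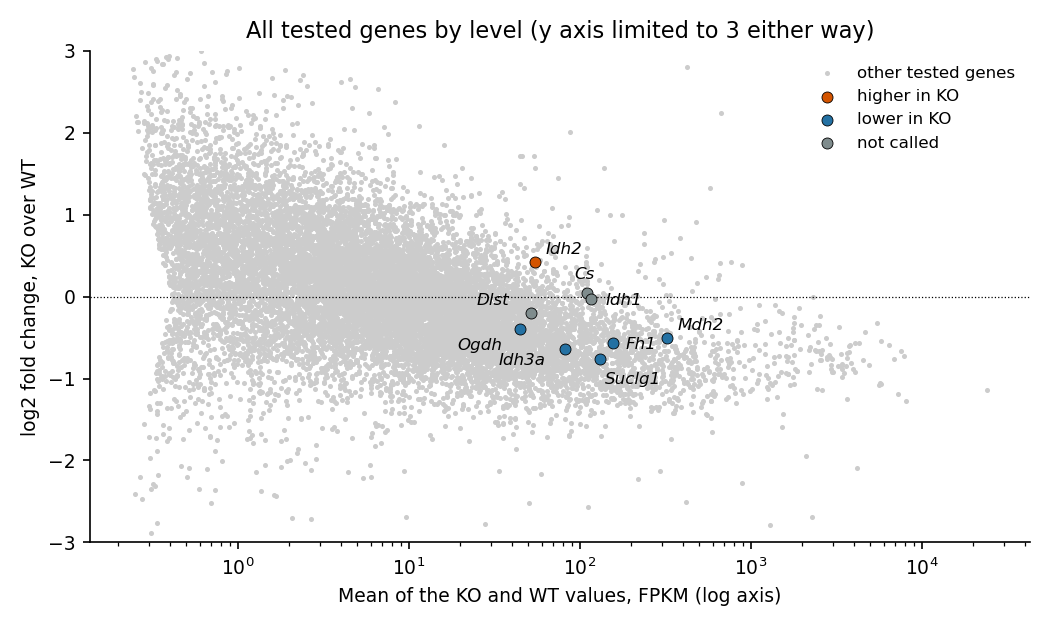
Log2 fold change of KO over WT against the mean FPKM of both conditions (log axis) for all tested genes (grey) and the 9 enzyme genes (coloured by the authors' call), with 34 tested genes beyond the y axis. As deposited, the cloud slopes down with level, Idh2 lies near its upper edge at 0.42, Cs and Idh1 in its upper part, and the 5 genes called lower, of which equal totals would leave only Suclg1 below 0, lie inside it.

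The promoter sequences of 3 genes are shown here side by side. As deposited, Idh2 rose, Suclg1 fell furthest of the 9 and Cs was level. Against genes of like level they stood otherwise. In their level classes 96.1%, 44.5% and 94.5% of genes had a lower log2 fold change than Idh2, Suclg1 and Cs. Whether the motifs below bear on these values was not tested. They are the 250 bases before the transcript start in RefSeq, on build GRCm38.p6, written in the direction of transcription. The start table held 8 of the 9 genes, all but Idh3a. Capitals mark a CCAAT box (CCAAT) or a GC box (GGGCGG) on either strand, motifs common in mammalian promoters. The windows are chr7:80115351-80115600 (minus strand) for Idh2, chr6:73248255-73248504 (plus strand) for Suclg1 and chr10:128337477-128337726 (plus strand) for Cs.
Idh2: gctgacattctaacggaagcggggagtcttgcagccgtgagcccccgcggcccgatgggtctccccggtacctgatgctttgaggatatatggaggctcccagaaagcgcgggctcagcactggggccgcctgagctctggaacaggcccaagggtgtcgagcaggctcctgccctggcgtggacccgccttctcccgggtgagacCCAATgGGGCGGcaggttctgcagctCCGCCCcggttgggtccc
Suclg1: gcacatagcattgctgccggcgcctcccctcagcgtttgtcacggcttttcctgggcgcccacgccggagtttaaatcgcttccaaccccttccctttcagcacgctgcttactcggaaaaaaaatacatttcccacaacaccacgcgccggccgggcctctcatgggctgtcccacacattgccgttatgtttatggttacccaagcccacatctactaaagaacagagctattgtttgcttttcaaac
Cs: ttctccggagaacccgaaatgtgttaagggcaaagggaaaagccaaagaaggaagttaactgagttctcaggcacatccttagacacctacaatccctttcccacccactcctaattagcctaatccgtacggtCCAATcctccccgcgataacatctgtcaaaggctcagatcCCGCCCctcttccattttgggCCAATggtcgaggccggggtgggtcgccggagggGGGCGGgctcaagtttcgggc
Idh2 holds 1 CCAAT box and 2 GC boxes, Cs holds 2 of each, and the letters of neither occur in the Suclg1 window. G and C made up 67.2% of the Idh2 window, 53.2% of the Suclg1 window and 55.2% of the Cs window. The CCAAT box occurred for 5 of the 8 genes (Cs, Fh1, Idh1, Idh2 and Ogdh) and for 37.5% of all 27025 genes in the start table, counting any listed start of a gene. The GC box occurred for 7 of the 8, all but Suclg1, and for 35.4% of all genes. The 2 motifs share no base in these 3 windows, and a match of letters is a description and not a bound site.

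Genes that feed, drain or border the cycle were read from a list of 56 genes, of which 53 were tested. Of these, 19 were called lower, 10 higher and 24 not called in the authors' deposited table. Their median log2 fold change was -0.19 as deposited and 0.46 with equal totals, where 9 of the 19 genes called lower would stay below 0. Equal totals adds the same 0.65 to the median of all tested genes, -0.06 as deposited, so the median of the list stays below it. The calls make up 35.8% lower and 18.9% higher, near the 28.4% and 22.4% of all tested genes. Those shares ran with level, from 5.46% lower and 41.3% higher in the lowest class to 76.6% lower and 1.56% higher in the highest. The 6 groups below differ in level, so the all-gene shares alone do not set the background for their counts. Of the 11 other subunits of the cycle's enzymes, 6 fell, 1 rose (Ogdhl) and 4 were not called, and 3 of the 6 (Sdhd, Dld and Sucla2) would stay below 0 with equal totals. The largest fall among them was in Sdhd, a membrane anchor of succinate dehydrogenase, which stood at 113 FPKM in KO and 268 FPKM in WT (log2 fold change -1.25, q = 0.000206, authors' deposited table). Sdhb, the iron-sulphur subunit of that enzyme, stood at 107.8 FPKM in KO and 159 FPKM in WT (log2 fold change -0.56, q = 0.00148, authors' deposited table). Both lie in the highest level class, where 6.88% of genes had a lower log2 fold change than Sdhd and 66.1% than Sdhb.

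Genes of pyruvate entry went both ways. Of 13 tested, 6 fell, 3 rose and 4 were not called in the authors' deposited table, and all 6 that fell would stay below 0 with equal totals. That is 46.2% lower and 23.1% higher, beside 28.4% and 22.4% of all tested genes. Pdha1, the E1 alpha subunit of pyruvate dehydrogenase, fell to 77.6 FPKM in KO, against 136 FPKM in WT, and Dlat, the E2 subunit, fell to 17.0 FPKM in KO, against 33.9 FPKM in WT, each with q = 0.000206 in the authors' deposited table. Both also lay below the median of their level class, by 0.09 and 0.66 on the log2 scale. Lower calls made up 76.6% of the class of Pdha1 and 44.9% of that of Dlat. Pdpr, the regulatory subunit of the phosphatase that reactivates pyruvate dehydrogenase, rose to 6.70 FPKM in KO, against 1.63 FPKM in WT (log2 fold change 2.04, q = 0.000206, authors' deposited table). Pdk2, a kinase that inactivates the same complex, rose to 2.95 FPKM in KO, against 1.68 FPKM in WT (log2 fold change 0.81, q = 0.000722, authors' deposited table). Higher calls are more common at these lower levels, with 33.3% in the level class of Pdpr and 39.5% in that of Pdk2. Of genes in the same class, 99.6% had a lower log2 fold change than Pdpr and 74.7% than Pdk2. The regions of Pdha1 and Pdpr each hold 2 genes, so their reads are less certain.

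**Figure D5:**
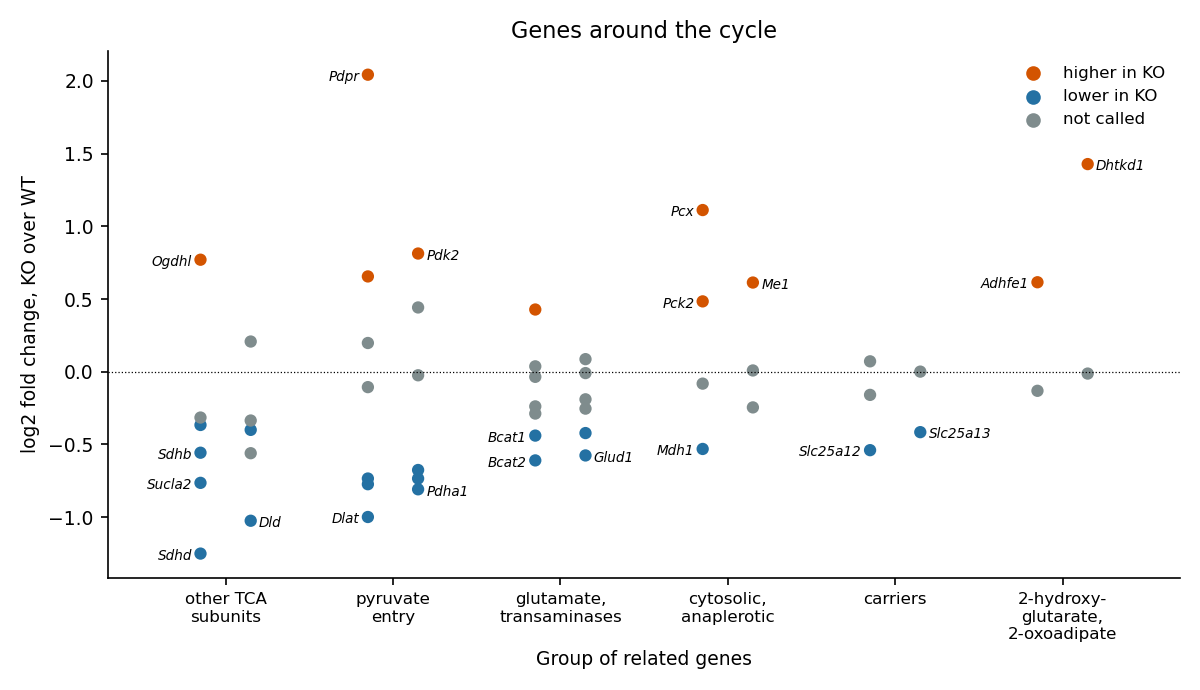
Log2 fold change of KO over WT for the 53 tested related genes, in 6 groups, coloured by the authors' call at q under 0.05, with the 20 genes named by rule labelled. As deposited, called genes among the other TCA subunits and the transaminases lie mostly below 0 (6 of 7 and 4 of 5), and those of the cytosolic and anaplerotic group mostly above it (3 of 4), while with equal totals 9 of the 19 genes called lower would stay below 0. The groups differ in level, and 76.6% of tested genes in the highest level class were called lower.

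Routes that make or refill 2-oxoglutarate and oxaloacetate outside the isocitrate step were mixed. Of 13 tested genes of glutamate and transaminases, 4 fell, 1 rose (Abat) and 8 were not called in the authors' deposited table, and 0 of the 4 would stay below 0 with equal totals. That is 30.8% lower and 7.69% higher, beside 28.4% and 22.4% of all tested genes. Glud1, glutamate dehydrogenase, fell to 72.7 FPKM in KO, against 108 FPKM in WT (log2 fold change -0.58, q = 0.00056, authors' deposited table). The branched-chain transaminase genes Bcat2 and Bcat1 fell by 0.61 and 0.44 on the log2 scale in the authors' deposited table, and the region of Bcat2 holds 2 genes. Lower calls made up 76.6% of the level class of Glud1, 59.5% of that of Bcat2 and 44.9% of that of Bcat1. Of genes in the same class, 63.8% had a lower log2 fold change than Glud1, 39.1% than Bcat2 and 41.6% than Bcat1. Of 7 tested cytosolic and anaplerotic genes, 3 rose (Pcx, Me1 and Pck2), 1 fell (Mdh1, not with equal totals) and 3 were not called. Pcx, pyruvate carboxylase, which makes oxaloacetate, rose to 9.29 FPKM in KO, against 4.30 FPKM in WT (log2 fold change 1.11, q = 0.000206, authors' deposited table), from a region of 2 genes. Me1, the cytosolic malic enzyme, also from a region of 2 genes, and Pck2, the mitochondrial phosphoenolpyruvate carboxykinase, had log2 fold changes of 0.61 and 0.48 in the authors' deposited table. Higher calls are more common at these lower levels, with 25.8% in the level class of Pcx and Pck2 and 12.4% in that of Me1. Of genes in the same class, 95.2% had a lower log2 fold change than Pcx, 93.4% than Me1 and 77.0% than Pck2. Of 5 carriers, the aspartate-glutamate exchangers Slc25a12 (-0.54) and Slc25a13 (-0.42) fell and 3 were not called in the authors' deposited table, but with equal totals both would lie above 0. Lower calls made up 31.3% of the level class of Slc25a12 and 59.5% of that of Slc25a13. Of genes in the same class, 22.9% had a lower log2 fold change than Slc25a12 and 57.2% than Slc25a13. Of 4 genes of 2-hydroxyglutarate and 2-oxoadipate, Dhtkd1 rose as above, Adhfe1, a hydroxyacid-oxoacid transhydrogenase, rose by 0.62 on the log2 scale to 1.01 FPKM in KO, against 0.662 FPKM in WT, and 2 were not called in the authors' deposited table. Adhfe1, whose region holds 3 genes, lay near the middle of its level class, where 57.4% of genes had a lower log2 fold change and 40.1% were called higher.

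Calls among the 9 genes rest on the authors' q alone. In the authors' deposited table the log2 fold change divided by its test statistic was 0.247 to 0.258 for the 9 genes, which would be its standard error if the statistic is such a ratio, a point the sources used here do not state. Read as a standard normal value and adjusted by Benjamini-Hochberg over the 14039 tested genes that have a statistic (56 have none), a reading chosen after seeing the data, the statistic would call 2 of the 9, Idh3a and Suclg1, both lower, where 14.1% of those genes would be called lower and 10.9% higher. At the authors' q under 0.01, 4 of the 9 were called lower and Idh2 was no longer called, beside 22.6% of tested genes lower and 17.2% higher. A called difference of at least 2-fold, met by 5.36% of tested genes as lower and 9.04% as higher, was reached by none of the 9. Their calls were as given above at q under 0.1 (31.8% of tested genes lower and 25.4% higher) and with the adjustment run over the more abundant 10571 genes (35.6% lower and 16.3% higher).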

How the data were processed

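Per the labels' protocols, total RNA was made into strand-specific messenger RNA libraries. Reads were aligned with TopHat2 to mouse build mm9, per the submitters' processing notes (the sources used here name no gene annotation). The FPKM, log2 fold change (KO over WT), test statistic (a score), p-value and q-value of each gene were computed by the authors, per the file headers, with 1 FPKM value per condition over libraries, so no expression test was run anew. The deposited q-values equalled a Benjamini-Hochberg adjustment over 14095 tested genes to within 5.18e-07. Region starts were counted from 0 in the table and are given here from 1. None of the 9 enzyme genes shares its region with another gene.

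Genes were called at q under 0.05, ranked into 10 classes by mean FPKM, and summarised by counts and medians. For equal totals, the log2 ratio of summed FPKM over tested genes was subtracted. The 9 genes and the lists were chosen with earlier results of these data known. Genes named from the related list are those called with a log2 fold change of at least 1 either way, and up to 3 further called genes per group with the largest change; Idh3b, Idh3g, Suclg2 and other listed genes beyond this rule were named after their values were seen. Some genes of the related list are not reported here by name. The ranking and adjustment were tested on simulated data. Python 3.11.15, NumPy 2.4.6, pandas 2.3.3, SciPy 1.17.1 and Matplotlib 3.10.9 were used.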

Additional observations from a re-analysis of the deposited data

How the results depend on the processing

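No paired analysis was possible because the table has 1 value per condition, and for the same reason no replicate could be left out. The 5 lower and 1 higher calls among the 9 genes kept their counts with q under 0.1, a recomputed adjustment and leaving out genes under the 25th percentile of mean FPKM. At q under 0.01, 4 were lower and 0 higher by the authors' test, against 5 and 1 at an unadjusted p under 0.05. Asking for a 2-fold difference left 0 lower and 0 higher among the 9, and 2 lower and 3 higher in the related list. The normal reading of the statistic, added after seeing the data, left 2 lower and 0 higher among the 9, and 8 lower and 4 higher in the related list. Equal totals turned the log2 fold changes of Idh1 (0.62), Idh3a (0.019), Ogdh (0.25), Dlst (0.45), Fh1 (0.085) and Mdh2 (0.15) above 0, as subtracting the median of the level class did (0.69, 0.085, 0.11, 0.31, 0.15 and 0.21 in the same order). Subtracting the median of all tested genes turned Idh1 alone, to 0.029. The median of the 9 genes turned to 0.25 with equal totals and 0.21 against level classes, and that of the related list to 0.46 and 0.16. These turns follow from the scaling itself. Equal totals adds 0.65 to the median of all tested genes too, which was -0.06 as deposited. Under that scaling the medians of the 9 genes and of the related list therefore stay below it. A pseudocount of 1 turned none of the 9.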
